A study of Pan troglodytes with 8 samples.

Results

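The cadherin superfamily was followed through its chromatin: 442 of the 211348 accessible regions measured in chimpanzee cerebral organoids had a cadherin, cadherin-related gene, non-clustered protocadherin, Fat, Dachsous or Celsr gene or calsyntenin as their closest gene. These regions belonged to 47 of the 41376 closest genes in the deposited table. Members were matched by gene name alone, at any distance; the choice of this family was made with earlier results of these data known. FAT2, PCDH19, CDHR4 and CDHR5 of the same families were not analysed here. A closest gene is a statement of nearness and does not show that a region regulates that gene. Where a non-coding gene lay closer, the region is not a member.

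Accessibility was measured by ATAC-seq, in which a transposase cuts open chromatin, in bulk populations sorted by flow cytometry. Whole-sphere organoids were grown from 1 induced pluripotent stem cell line, SandraA, from 9000 cells seeded per well, and were harvested in culture week 8, give or take 3 days. The 4 populations were apical radial glia (aRG), the stem cells at the ventricular surface; basal radial glia (bRG), which have left that surface; basal intermediate progenitors (bIP), short-lived cells that make neurons; and BCL11B+ neurons (N). Each population had 2 libraries, numbered 1 and 2, without any further treatment that would separate the groups. The labels do not say whether libraries 1 and 2 came from separate cultures, so p-values measure only the spread between these libraries. All groups share a single cell line.

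Cadherins are calcium-dependent adhesion molecules that bind cadherins on neighbouring cells, and classical cadherins are tied to actin through catenins. In the developing cortex N-cadherin, encoded by CDH2, holds radial glia together in a belt of adherens junctions at the ventricular surface. Type II cadherins and delta-protocadherins are known for patchy expression among brain areas and neuron types, the Fat, Dachsous and Celsr families for cell polarity, and calsyntenins for roles at synapses and in axonal transport.

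Library totals ranged from 24913928 to 34845193 counts, and the member regions held 0.201% to 0.214% of them. Levels are given in CPM, counts scaled to a common library total, with the TMM correction for a few very open regions taking a larger share of a library. The regions near 6 of 6 radial glial markers fell in bIP and in N against aRG. Those near 5 of 6 cortical neuron markers rose in N, and 5 of 6 also rose in bIP. Their median log2 fold change against aRG was 0.72 in N and 1.03 in bIP, and between N and bIP 2 rose and 2 fell. Of 5 bIP markers, 3 rose and 0 fell in bIP against aRG, while 2 rose and 2 fell in N. Of all gene sums, 32.8% rose and 28.0% fell in N, and 22.0% and 18.7% in bIP. BCL11B itself, the gene named in the neurons' label, had 54.9 and 47.1 CPM in N against 65.9 and 58.2 CPM in aRG (log2 fold change -0.28, adjusted p = 0.063), so chromatin near it was not more open in the neurons. In bulk populations, fewer cells with an open region and less signal per cell cannot be told apart.

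No member was called between the radial glial populations, whose comparison belongs to the theme of the series. In the edgeR quasi-likelihood fit, 0 of 405 tested member regions and 0 of 47 gene sums (all regions of a closest gene added together) passed a Benjamini-Hochberg adjusted p of 0.05, where 0.0% of all regions and 0.0% of all gene sums passed. At an unadjusted p of 0.05, 6 of the 405 regions (1.5%, beside 2.6% of all regions) and 0 of the 47 gene sums (beside 1.3% of all) passed, and DESeq2 also called 0 of either. CDH2 had 99.2 and 109 CPM in aRG against 94.6 and 105 CPM in bRG, and these values overlapped. Its log2 fold change, the difference on the log2 scale given here with its standard error, was -0.06 ± 0.12. Over the 47 genes the bRG differences ran from -0.20 ± 0.29 (CDH1) to 0.37 ± 0.72 (FAT3). With 2 libraries a group, differences of the size of these errors were not detectable.

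Against aRG, the neurons differed in 29 of 47 gene sums, 17 higher and 12 lower, and bIP in 17, of which 10 were higher and 7 lower. These are 61.7% and 36.2% of the members, against 60.8% (32.8% higher, 28.0% lower) and 40.7% (22.0% higher, 18.7% lower) of all closest genes, so the family was called about as often as the rest of the table. Against bRG, 27 genes differed in N, 16 higher and 11 lower (57.4%, beside 59.2% of all, 31.9% higher and 27.3% lower). Against bRG in bIP, 19 differed, 12 higher and 7 lower (40.4%, beside 37.9% of all, 19.8% higher and 18.1% lower). Comparisons with aRG share the aRG libraries and are not independent of each other. "Rose" and "fell" below are used only for values past the adjusted threshold. The median log2 fold change of the members in N against aRG was 0.17, and 0.05 over all gene sums. With the replicate number as a block, 26 member genes passed for bIP against aRG, 15 higher and 11 lower, in place of 17, which is 55.3% beside 49.6% of all gene sums in that fit (26.1% higher, 23.6% lower). Between N and bIP, 21 genes differed, 11 higher and 10 lower in N (44.7% against 40.1% of all, 20.9% higher and 19.2% lower). Fewer passed without bIP library 2 or N library 2, and the shares over all gene sums in those fits are not given here. With the replicate block 27 passed between N and bIP, 13 higher and 14 lower (57.4% beside 50.0% of all, 25.3% higher and 24.8% lower).

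**Figure D1:**
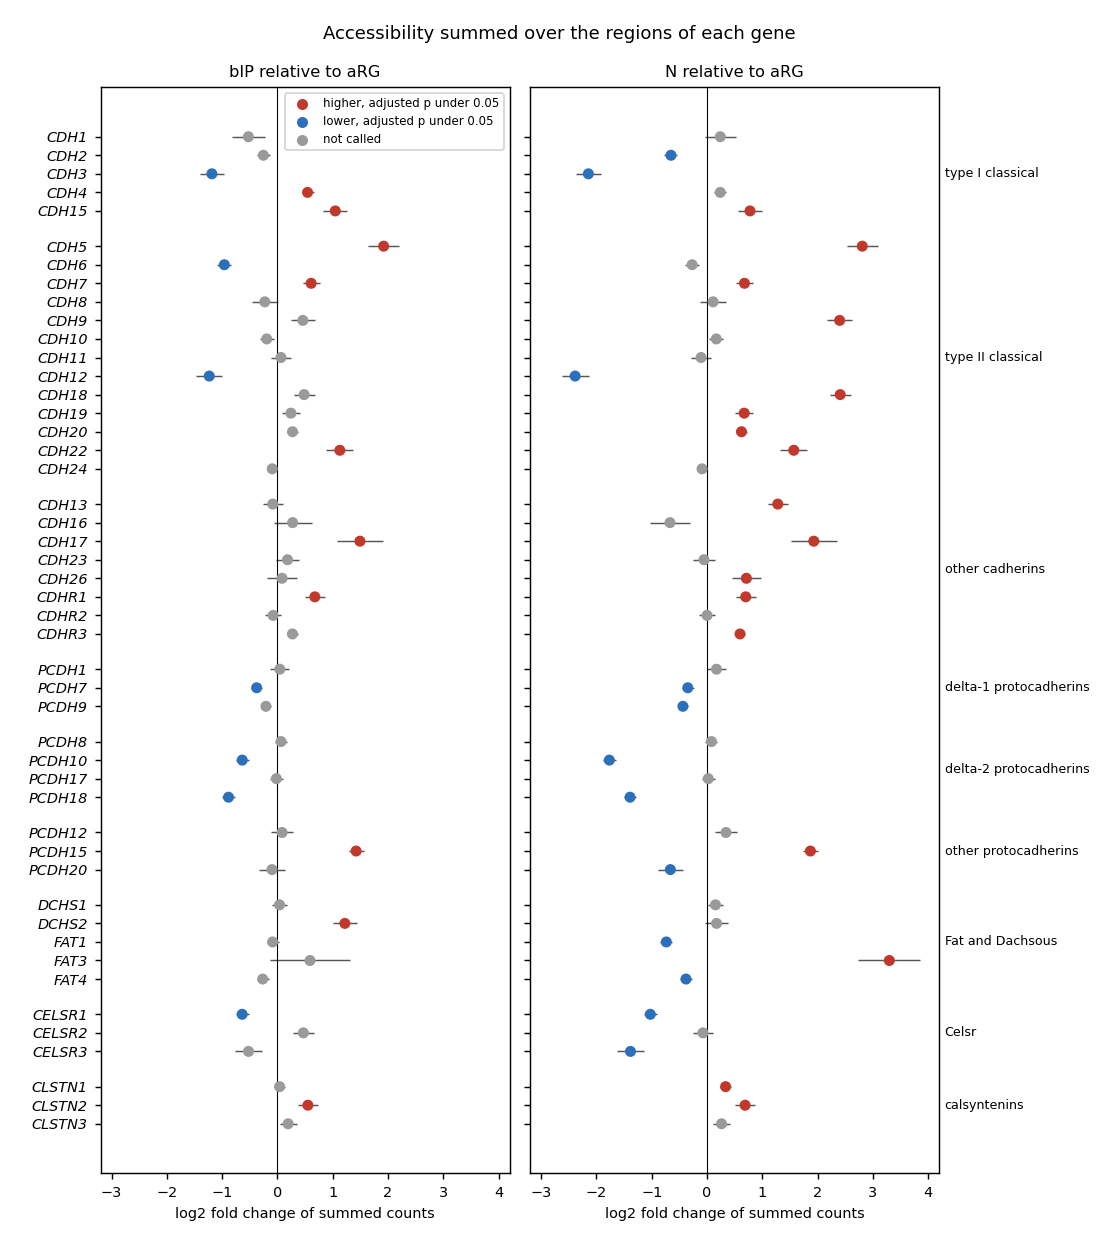
Log2 fold change of the summed accessibility of each of the 47 cadherin-superfamily genes, for bIP against aRG and for N against aRG, grouped by family; bars are 1 standard error of the fit over 2 libraries per population, red marks a rise, blue a fall and grey no call. Type II cadherins spread from CDH12 at -2.39 to CDH5 at 2.81 in N, while no delta-protocadherin rose.

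CDH2 accessibility fell along with the radial glial markers. Its 17 regions together had 99.2 and 109 CPM in aRG, 94.6 and 105 in bRG, 79.0 and 95.7 in bIP, and 65.4 and 67.3 in N. Both neuron libraries lay below all 6 libraries of the other populations. The sum fell by 0.65 on the log2 scale in N against aRG (SE 0.12, adjusted p = 0.0013). It fell by 0.40 in N against bIP (SE 0.12, adjusted p = 0.026), a call lost without N library 1 (-0.38), N library 2 (-0.42) or bIP library 2 (-0.31). In bIP against aRG the difference of -0.26 ± 0.12 did not pass (adjusted p = 0.12), but passed with the replicate block (adjusted p = 0.029).

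The region over the CDH2 start, chr18:22058079-22061657 in the chimpanzee build panTro6, carried most of that signal. It had 82.6 and 91.0 CPM in aRG, 73.3 and 77.0 in bRG, 58.3 and 73.2 in bIP, and 50.5 and 52.7 in N, and was in the peak list of all 4 populations. It fell by 0.75 in N against aRG (SE 0.10, adjusted p = 3.3e-05). Other CDH2 regions, chosen for description after their values were seen, moved differently. A region 216188 bp from the start, chr18:22270963-22271822, had 3.49 and 3.15 CPM in aRG and 0.155 and 0.157 CPM in N and fell by 4.37 (SE 0.44, adjusted p = 3e-06). A region 166585 bp away, chr18:22221156-22221944, had 3.05 and 3.88 CPM in bIP but only 0.324 to 0.783 CPM in the other 6 libraries. It rose by 2.95 ± 0.43 in bIP against aRG (adjusted p = 0.00018), fell by 3.17 in N against bIP (SE 0.43, adjusted p = 0.00014), and was a peak in bIP alone. Of the 15 CDH2 regions tested, 3 rose and 9 fell in N against aRG.

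**Figure D2:**
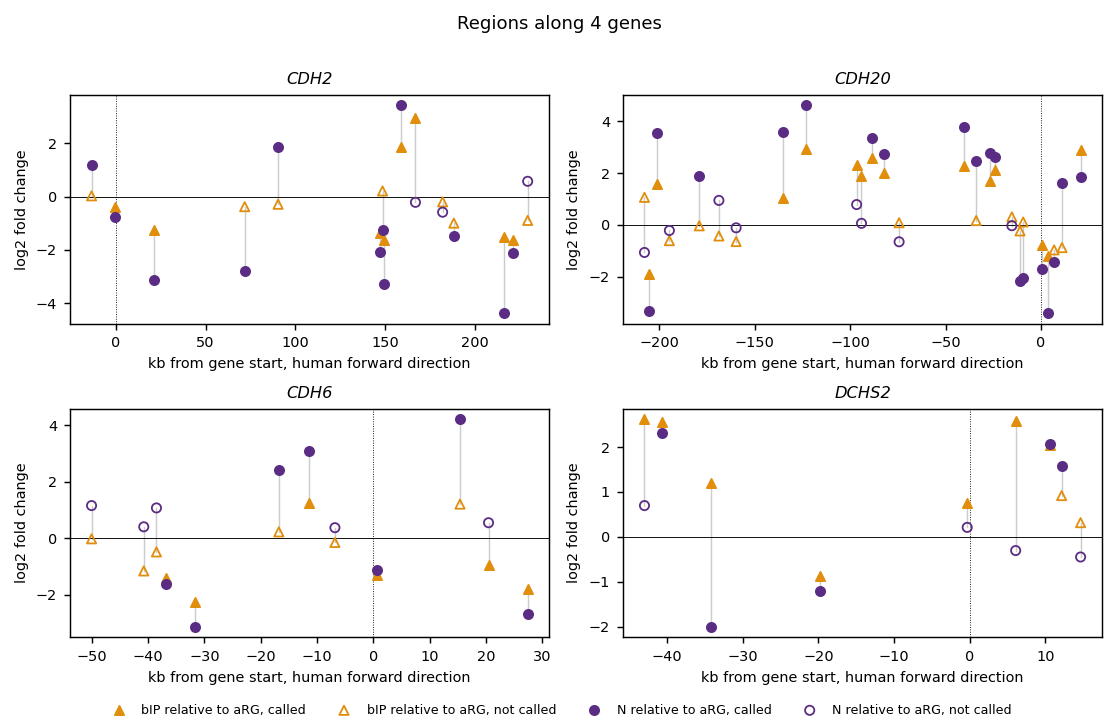
Log2 fold change of every tested region of CDH2, CDH20, CDH6 and DCHS2 against its distance in kb from the gene start; triangles are bIP against aRG and circles N against aRG, filled where called. At CDH2 the region at 0 kb is lower in both comparisons, and 1 distant region is higher in bIP at 2.95 and not in N; at DCHS2 6 of 9 regions are higher in bIP.

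The other type I classical cadherins, the group of N-cadherin and E-cadherin, moved in both directions: against aRG, CDH15 rose and CDH2 and CDH3 fell in N. CDH3 (P-cadherin, an epithelial cadherin) had 1 region, with 9.68 and 8.03 CPM in aRG, 3.83 and 3.95 in bIP and 2.18 and 1.80 in N. It fell by 2.15 in N (SE 0.23, adjusted p = 6.8e-05) and by 1.19 in bIP (SE 0.22, adjusted p = 0.0028). The 5 epithelial marker genes summed to 24.0 to 32.6 CPM in N and 44.7 to 49.4 CPM in aRG. Of these, GRHL2 and KRT18 fell in N and 0 rose, where 28.0% of all gene sums fell and 32.8% rose. EPCAM (0.36), ESRP1 (-0.33) and KRT8 (-0.56) did not pass. The part of these markers in the CDH3 result was not tested. CDH15 (M-cadherin, known from muscle) had 19.5 and 16.8 CPM in aRG and 44.9 and 30.1 in bIP, a rise of 1.05 ± 0.22 (adjusted p = 0.0057). In N it rose by 0.78 ± 0.22 (adjusted p = 0.014), a call lost without N library 1 (0.56) or aRG library 2 (0.68). CDH4 (R-cadherin, a close relative of N-cadherin) was highest in bIP, with 77.6 and 75.4 CPM against 50.4 and 54.6 in aRG and 67.0 and 56.9 in N. Its bIP rise was 0.54 ± 0.11 (adjusted p = 0.0042). CDH1 (E-cadherin) had 2.92 to 6.58 CPM in all libraries and did not pass against aRG.

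Type II classical cadherins spread widely, with 7 of 13 genes higher and 1 lower in N against aRG, and a median log2 fold change of 0.62. Over all gene sums 32.8% were higher and 28.0% lower. Over regions within 1 kb alone the balance was the opposite, with 2 of 11 genes higher, 5 lower and a median of -0.32. Over all gene sums within 1 kb the balance turned as well, with 24.7% higher and 28.3% lower. CDH18, CDH9 and CDH12, which are known for expression in the brain, lay along 1 stretch of chromosome 5 and moved in opposite directions. The regions assigned to CDH9 spanned chr5:65757229-65911375, those of CDH12 chr5:69838593-69934741 and those of CDH18 chr5:72263037-72381132. CDH18 had 6.95 and 7.19 CPM in aRG, 10.5 and 9.21 in bIP, and 32.1 and 43.1 in N. CDH9 had 6.32 and 6.06 CPM in aRG, 8.14 and 8.88 in bIP, and 26.5 and 39.0 in N. Both neuron libraries stood above every other library for both genes. The rise in N against aRG was 2.41 ± 0.19 for CDH18 (adjusted p = 1.6e-05) and 2.40 ± 0.22 for CDH9 (adjusted p = 3.4e-05), and against bIP it was 1.93 ± 0.18 and 1.94 ± 0.22 (adjusted p = 0.00029 and 0.00042). In bIP against aRG neither passed (CDH18 0.48 ± 0.19, adjusted p = 0.071 and 0.046 with the replicate block).

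CDH12, between them, went the other way. It had 94.5 and 62.2 CPM in aRG, 89.96 and 64.6 in bRG, 28.7 and 38.0 in bIP, and 14.1 and 16.0 in N. The groups of radial glia, bIP and N did not overlap. CDH12 fell by 1.23 in bIP (SE 0.23, adjusted p = 0.0033) and by 2.39 in N against aRG (SE 0.25, adjusted p = 5.8e-05). Within 1 kb of its start the differences were -0.04 in bIP (adjusted p = 0.88) and -0.58 in N (adjusted p = 0.011). Of its 8 tested regions 6 fell and 0 rose in N, and it was the only gene with 5 or more tested regions in which regions only fell. For CDH18, 7 of 8 tested regions rose and 0 fell, and for CDH9, 7 of 9 rose and 0 fell. CDH10, in the same stretch, had 38.1 to 48.1 CPM in aRG and N, and its sum did not pass against aRG. Of its 6 tested regions, 4 rose and 1 fell in N against aRG. Within 1 kb of its start it fell by 0.91 in N (SE 0.14, adjusted p = 0.00036) and by 0.50 in bIP (SE 0.13, adjusted p = 0.021).

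CDH5 (VE-cadherin, the adhesion molecule of endothelial junctions) had the largest rise in N after FAT3. It had 3.85 and 5.22 CPM in aRG, 21.5 and 12.8 in bIP, and 34.8 and 28.8 in N, a rise of 2.81 ± 0.28 in N (adjusted p = 5.4e-05) and of 1.92 ± 0.28 in bIP (adjusted p = 0.00095). Its further rise from bIP to N, 0.89 ± 0.26 (adjusted p = 0.025), was lost without N library 1 (0.74) or bIP library 2 (0.51). Of 3 endothelial markers measured besides it, TEK rose in N by 2.08 and KDR fell by 1.4 on the log2 scale, and CLDN5 did not pass (0.17). TEK had 2.73 and 2.65 CPM in aRG, 16.3 and 11.3 in bIP, and 11.5 and 11.3 in N. The summed level of the 3 was 30.5 and 36.4 CPM in N and 32.4 and 38.8 CPM in aRG; the part of endothelial cells in the CDH5 result was not tested. CDH22 (a brain cadherin) had 24.3 and 26.7 CPM in aRG, 71.8 and 39.6 in bIP, and 83.6 and 67.7 in N. It rose by 1.13 ± 0.24 in bIP (adjusted p = 0.0063) and by 1.57 ± 0.24 in N (adjusted p = 0.00059).

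CDH6 and CDH20 were examples, chosen after their values were seen, of sums that hide opposite moves. CDH6 (K-cadherin) had 45.4 and 46.1 CPM in aRG, 22.1 and 24.9 in bIP, and 34.1 and 41.9 in N, so bIP stood lowest. It fell by 0.96 in bIP against aRG (SE 0.13, adjusted p = 0.00057) and rose by 0.69 ± 0.13 from bIP to N (adjusted p = 0.0031). N against aRG gave -0.27 ± 0.12 (adjusted p = 0.091, and 0.022 with the replicate block). The CDH6 start region, chr5:61545750-61548139, fell and was low in N too: 32.6 and 29.6 CPM in aRG, 12.2 and 13.4 in bIP, 13.6 and 14.7 in N. Its log2 fold change was -1.28 ± 0.14 in bIP and -1.13 ± 0.14 in N (adjusted p = 2.4e-05 and 1.2e-05). A region 14982 bp off, chr5:61531743-61532537, rose from 0.274 and 0.168 CPM in aRG to 3.14 and 5.34 CPM in N (4.22 ± 0.44, adjusted p = 4.2e-06). CDH20 rose in N by 0.62 ± 0.10 over all regions (adjusted p = 0.0006), with 75.2 and 79.7 CPM in aRG and 118 and 121 CPM in N. Restricted to regions within 50 kb of its start it fell by 0.50 (SE 0.11, adjusted p = 0.0031), and within 1 kb by 1.47 (SE 0.15, adjusted p = 3.7e-05). CDH7 (0.68) and CDH19 (0.67) also rose in N, but not CDH7 within 1 kb of its start (0.28, adjusted p = 0.19) or CDH19 within 50 kb (0.47, adjusted p = 0.064). CDH8, whose 16 regions summed to 2.43 to 3.47 CPM and lay in no peak list, did not pass in any comparison with aRG.

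**Figure D3:**
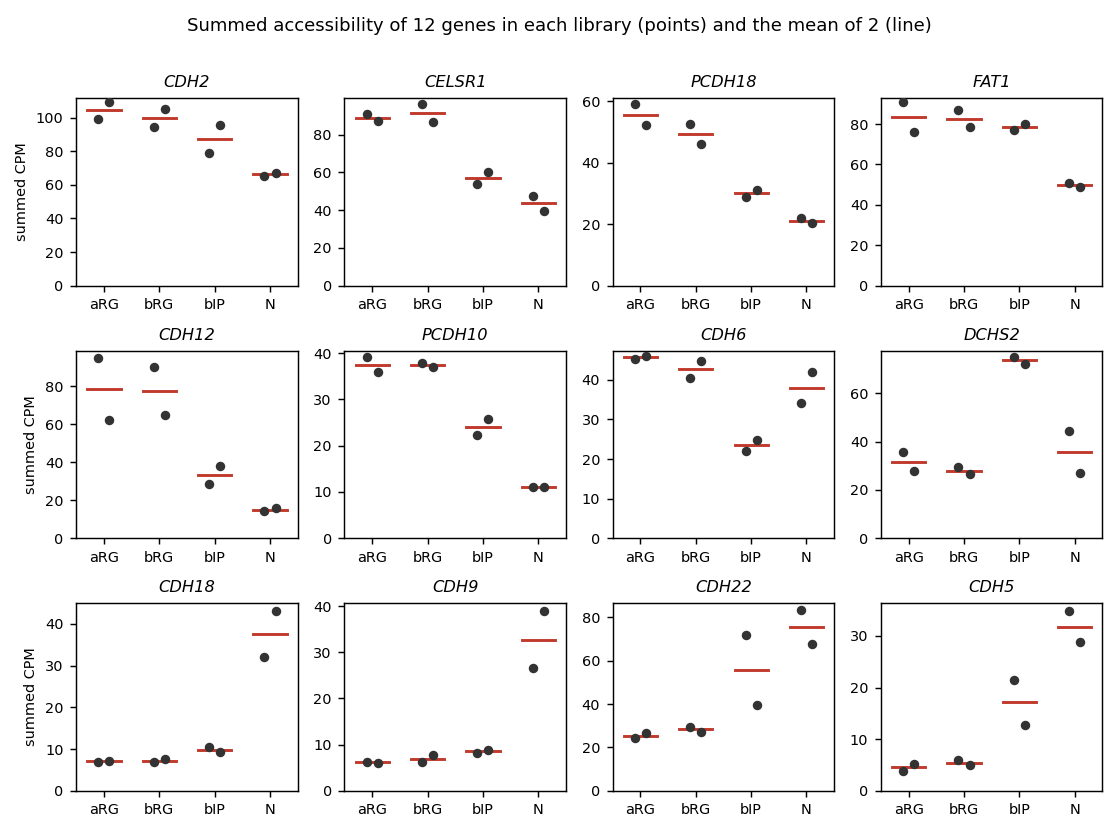
Summed accessibility in CPM (linear axis from 0) of 12 genes in each of the 8 libraries, with points for libraries and a line for each population's mean. CELSR1, PCDH18, CDH12 and PCDH10 step down from radial glia to bIP and N. CDH2 is lowest in N, while its bIP and bRG libraries overlap. CDH18 and CDH9 are high in N alone, and DCHS2 is high in bIP.

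Among the other cadherins, 5 of 8 measured genes rose and 0 fell in N against aRG, where 32.8% of all gene sums rose and 28.0% fell. Within 1 kb of the start 0 of 4 rose and 1 fell (CDH23), where 24.7% of all gene sums within 1 kb rose and 28.3% fell. CDH13 (T-cadherin, which is anchored by a lipid and lacks a cytoplasmic tail) had 11.6 and 13.9 CPM in aRG, 13.8 and 10.2 in bIP, and 30.3 and 31.6 in N, and so changed between bIP and N. It rose by 1.28 ± 0.18 against aRG (adjusted p = 0.00029) and by 1.37 ± 0.18 against bIP (adjusted p = 0.00073), and within 1 kb of its start gave 0.27 against aRG (adjusted p = 0.27) and 0.54 against bIP (adjusted p = 0.067). CDH17 (LI-cadherin, known from liver and intestine) had 3.14 and 2.73 CPM in aRG, 10.9 and 5.59 in bIP, and 15.3 and 7.11 in N, with the libraries of bIP and of N far apart. Its N rise was 1.93 ± 0.42 (adjusted p = 0.0037) and 1.27 without N library 1. Its bIP rise of 1.49 ± 0.42 (adjusted p = 0.021) was lost without aRG library 1 (1.6), aRG library 2 (1.4) or bIP library 1 (0.93). CDHR3 rose by 0.60 ± 0.10, CDHR1 by 0.70 ± 0.18 and CDH26 by 0.71 ± 0.26 in N (adjusted p = 0.00077, 0.0095 and 0.042). The CDHR1 call was lost without N library 1 (0.52) or aRG library 2 (0.54), and that of CDH26 when any library other than N library 2 was left out (0.31 to 0.74) and in DESeq2 (0.67).

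Delta-protocadherins are weaker adhesion molecules than classical cadherins, and some signal to actin through their tails. In N against aRG, 4 of the 7 measured fell and 0 rose, where 28.0% of all gene sums fell and 32.8% rose. Within 1 kb of the start PCDH1 rose (0.48, adjusted p = 0.018). PCDH10 (OL-protocadherin, which recruits actin regulators) had 39.1 and 35.9 CPM in aRG, 22.4 and 25.8 in bIP, and 11 and 11 in N, in 3 groups without overlap. It fell by 0.64 in bIP (SE 0.11, adjusted p = 0.0024) and by 1.77 in N against aRG (SE 0.12, adjusted p = 8.9e-06), and by 1.13 between bIP and N (SE 0.12, adjusted p = 0.00035). Of its 2 tested regions only 1 fell. The other, nearer to the start, gave 0.10 in bIP and -0.29 in N against aRG and passed in neither. PCDH18 had 59.0 and 52.2 CPM in aRG, 28.9 and 31.2 in bIP, and 22.1 and 20.3 in N, and its log2 fold change was -0.89 ± 0.11 in bIP and -1.39 ± 0.11 in N (adjusted p = 0.00049 and 2e-05). Its start region, chr4:135342133-135344420, fell by 1.79 in N (SE 0.12, adjusted p = 2e-07). A PCDH18 region 7021 bp off, chr4:135335507-135336426, rose from 1.53 and 1.43 CPM in aRG to 5.15 and 4.64 CPM in N (1.73 ± 0.29, adjusted p = 0.00015); both regions were chosen after their values were seen.

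PCDH9 and PCDH7, of the delta-1 branch, fell less in sum, by 0.44 (SE 0.09, adjusted p = 0.0023) and 0.35 (SE 0.10, adjusted p = 0.018). The PCDH9 call was lost when only regions within 50 kb were summed (-0.02, adjusted p = 0.83). The PCDH7 call was lost without aRG library 1 (-0.27) or N library 1 (-0.29). PCDH17 and PCDH8, of the delta-2 branch, did not pass (0.02 ± 0.12 and 0.08 ± 0.11). The PCDH17 sum was near level, at 100.3 and 84.8 CPM in aRG and 87.6 and 101 CPM in N, while 7 of its 11 tested regions rose and 2 fell. PCDH8 regions rose in 9 and fell in 4 of 19 tested.

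PCDH15, a protocadherin of the tip links of hair cells, rose: 11.7 and 10.7 CPM in aRG, 32.5 and 27.4 in bIP, and 39.0 and 42.8 in N. The rise was 1.42 ± 0.13 in bIP and 1.87 ± 0.13 in N (adjusted p = 0.00014 and 1.1e-05). Of its 9 tested regions 7 rose and 0 fell in N, and its start region, chr10:50736573-50737709, was among those that rose (0.89 ± 0.17, adjusted p = 0.0005). PCDH20 fell by 0.66 in N (SE 0.23, adjusted p = 0.035), a call lost without aRG library 1 (-0.31), N library 1 (-0.72) or N library 2 (-0.61).

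The Fat and Dachsous genes encode giant cadherins that face each other across cell borders, FAT4 with DCHS1 as receptor and ligand. In N against aRG, FAT1 and FAT4 fell, FAT3 rose, and DCHS1 and DCHS2 did not pass. FAT1 had 90.7 and 76.0 CPM in aRG, 77.0 and 79.8 in bIP, and 51.1 and 49.1 in N, so N stood below bIP and aRG. It fell by 0.74 (SE 0.11, adjusted p = 0.00046). FAT4 had 145 and 125 CPM in aRG and 101 and 106 CPM in N over 32 regions, and fell by 0.38 (SE 0.11, adjusted p = 0.015); the call was lost without aRG library 1 (-0.27) or N library 1 (-0.34). Its 30 tested regions were split, 10 higher and 9 lower. FAT3 had 1 region, near the detection limit: 0.224 and 0.121 CPM in aRG, 0.2 and 0.329 in bIP, and 1.33 and 2.21 in N, a rise of 3.30 ± 0.56 (adjusted p = 0.00094). DCHS1 gave 0.15 ± 0.13 (adjusted p = 0.35), with 28.9 and 23.9 CPM in aRG and 31.5 and 27.2 in N.

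DCHS2 was most open in bIP. It had 35.7 and 27.8 CPM in aRG, 29.4 and 26.5 in bRG, 75.3 and 72.3 in bIP, and 44.3 and 27.0 in N. Both bIP libraries were above the other 6. It rose by 1.22 ± 0.21 in bIP against aRG (adjusted p = 0.0023) and fell by 1.05 in N against bIP (SE 0.21, adjusted p = 0.0052). Within the locus, chr4:152521214-152521972 had 8.34 and 5.96 CPM in aRG, 14.6 and 18.3 in bIP, and 1.89 and 1.65 in N. It rose by 1.20 ± 0.26 in bIP against aRG (adjusted p = 0.0023) and fell by 3.21 in N against bIP (SE 0.29, adjusted p = 1.9e-05). A further pair of DCHS2 regions, chr4:152512310-152513212 and chr4:152561215-152562355, were in the bIP peak list alone and rose in bIP by 2.62 ± 0.38 and 2.57 ± 0.41 (adjusted p = 0.00018 and 0.00033). FAT1 had a region of the same kind 15953 bp from its start, chr4:184695926-184696919, with 13.8 and 17.5 CPM in bIP and 1.00 to 2.27 CPM in the other 6 libraries. It rose by 2.88 ± 0.37 in bIP against aRG (adjusted p = 7.2e-05) and fell by 3.25 in N against bIP (SE 0.37, adjusted p = 5.8e-05), while the FAT1 start region, chr4:184678926-184683357, fell in bIP (-0.61 ± 0.11, adjusted p = 0.00054). These 4 regions were chosen after their values were seen.

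Celsr proteins are cadherins with a receptor-like membrane part and are core components of planar cell polarity. CELSR1 and CELSR3 fell in N and CELSR2 did not pass. CELSR1, known for its role in progenitors, had 90.9 and 87.1 CPM in aRG, 96.5 and 86.8 in bRG, 53.9 and 60.4 in bIP, and 47.7 and 39.7 in N, without overlap between radial glia, bIP and N. It fell by 0.64 in bIP (SE 0.12, adjusted p = 0.0028) and by 1.02 in N against aRG (SE 0.12, adjusted p = 0.0001). Its start region, chr22:29367756-29370463, went from 55.5 and 53.4 CPM in aRG to 16.6 and 13.5 in N (-1.86 ± 0.14, adjusted p = 4e-07). CELSR3, known for its role in axon tracts of neurons, had 9.08 and 7.27 CPM in aRG and 3.54 and 2.70 in N, and fell by 1.38 (SE 0.24, adjusted p = 0.0012). Its fall from bIP to N, -0.86 ± 0.25 (adjusted p = 0.023), was lost without bIP library 1 (-0.75) or N library 2 (-0.68). CELSR2 had 91.2 and 77.9 CPM in aRG, 121 and 113 in bIP, and 96.6 and 64.1 in N. Its difference of 0.47 ± 0.18 in bIP had an adjusted p of 0.073, and of 0.0097 with the replicate block.

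The calsyntenins, cadherin-like proteins of synapses that also bind kinesin, rose or did not pass. CLSTN2 had the most regions of the family, 37, with 114 and 98.8 CPM in aRG, 178 and 134 in bIP, and 195 and 149 in N. It rose by 0.55 ± 0.17 in bIP and 0.69 ± 0.17 in N (adjusted p = 0.034 and 0.0082), and 23 of its 37 regions rose and 6 fell in N. The N call was lost without N library 1 (0.48) or aRG library 2 (0.59), and the bIP call without aRG library 1 (0.66), aRG library 2 (0.45) or bIP library 1 (0.33). CLSTN1 had 26 and 26.9 CPM in aRG and 34.8 and 32 in N (0.34 ± 0.10, adjusted p = 0.021), a call lost without N library 1 (0.27), aRG library 1 (0.31), aRG library 2 (0.36) or bIP library 2 (0.27), and in DESeq2 (0.29). A CLSTN1 region 3041 bp from the start, chr1:8530077-8530675, rose from 0.783 and 0.714 CPM in aRG to 7.73 and 7.89 CPM in N (3.37 ± 0.31, adjusted p = 1.5e-06). CLSTN3 had 31.1 and 26.8 CPM in aRG and 37.5 and 32.1 in N (0.26 ± 0.15, adjusted p = 0.17, and 0.02 with the replicate block).

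Single regions ranged more widely than gene sums, which follows from adding regions together. Most loci with at least 5 tested regions held both rises and falls, as in the whole table. Of the 405 tested member regions, 277 (68.4%, against 69.0% of all regions) differed between N and aRG, 174 higher and 103 lower. The shares of 43.0% higher and 25.4% lower stood beside 37.2% and 31.7% over all regions, and the members' median log2 fold change was 0.56 beside 0.13. For bIP against aRG 179 differed (44.2%, against 47.2% of all), 109 higher and 70 lower, where 24.5% and 22.6% of all regions were. Against bRG, 283 differed in N, 184 higher and 99 lower (69.9%, beside 67.9% of all, 37.5% and 30.4%). In bIP against bRG 163 differed, 99 higher and 64 lower (40.2%, beside 42.9% of all, 22.4% and 20.4%). For N against bIP 196 differed (48.4%, against 47.6% of all, 25.0% and 22.6%), 119 higher and 77 lower. Without bIP library 2 the last split turned to more falls than rises, and the shares over all regions in that fit are not given here. Of the 29 genes with at least 5 tested regions, 23 held at least 1 region that rose and 1 that fell in N against aRG, 79.3% beside 79.0% of all 13564 such genes.

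**Figure D4:**
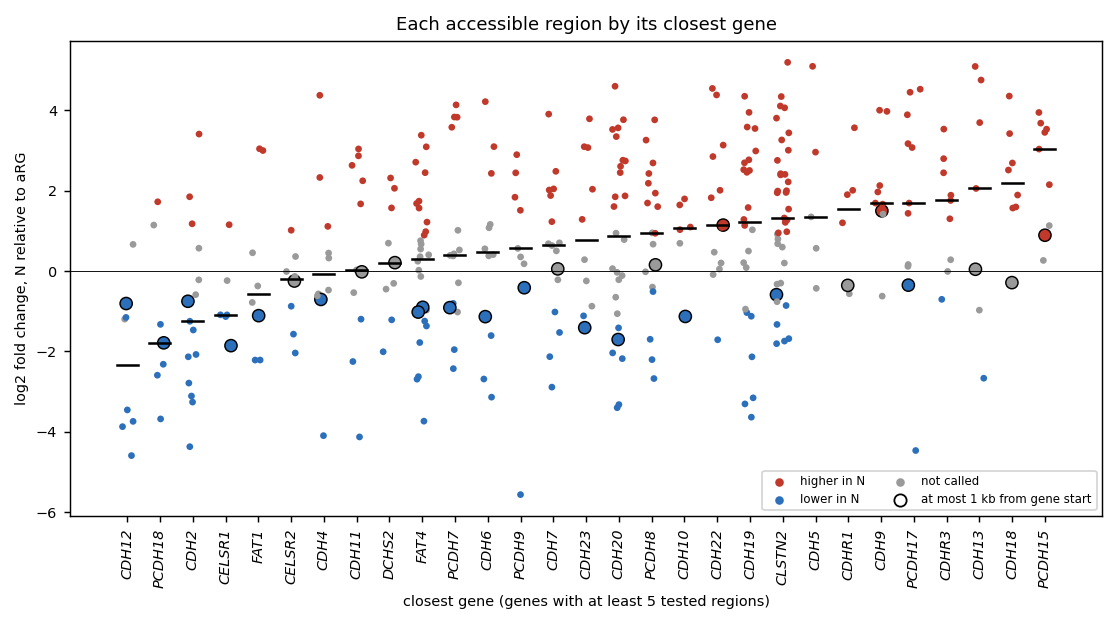
Log2 fold change in N against aRG of every tested region of the 29 genes with at least 5 tested regions; bars mark each gene's median and rings mark regions at most 1 kb from the gene start. In 23 genes regions rose and fell; CDH18, CDH9 and PCDH15 have rises without a fall, and CDH12 falls without a rise.

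The largest falls in N, among regions with a mean of at least 2 CPM, were in distal regions of genes whose sums moved less. A PCDH9 region, chr13:48380686-48381718, 53548 bp from the start, had 25.8 and 22.2 CPM in aRG, 21.2 and 17.7 in bRG, 2.62 and 4.34 in bIP, and 0.497 and 0.511 in N. It fell by 5.56 (SE 0.31, adjusted p = 6.7e-08), the largest change of any member region in this ranking. A CDH12 region, chr5:69924016-69925906, had 56.3 and 35.6 CPM in aRG, 9.48 and 15.8 in bIP, and 1.74 and 2.08 in N (-4.59 ± 0.31, adjusted p = 2e-07). A PCDH17 region, chr13:38830764-38832747, kept 12.7 and 23.4 CPM in bIP against 32.9 and 23.7 in aRG and dropped to 1.4 and 1.14 in N (-4.47 ± 0.30, adjusted p = 2.2e-07). Its loss thus fell mostly between bIP and N (-3.81 ± 0.30, adjusted p = 1e-05).

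Regions of CDH11 (OB-cadherin, a mesenchymal cadherin), CDH4 and PCDH10 followed. The CDH11 region, chr16:50177092-50178164, had 9.48 and 21.4 CPM in aRG, 2.54 and 5.45 in bIP, and 0.714 and 1.06 in N. It fell by 4.13 (SE 0.47, adjusted p = 8e-06), and by 3.44 without aRG library 2. The CDH11 gene sum did not pass in N against aRG (-0.11 ± 0.17, adjusted p = 0.62). Of its 11 tested regions 5 rose and 3 fell. The 5 mesenchymal markers summed to 87.4 to 101 CPM in N and 129.9 to 164 CPM in aRG. Of these, COL1A1 and PDGFRB fell in N and 0 rose, where 28.0% of all gene sums fell and 32.8% rose. COL1A2 (-0.05), DCN (-0.04) and LUM (0.51) did not pass. The part of these markers in the fall of the CDH11 region was not tested. The CDH4 region, chr20:60915525-60916450, had 5.76 and 7.98 CPM in aRG and 0.435 and 0.354 in N (-4.10 ± 0.43, adjusted p = 4.2e-06). The PCDH10 region, chr4:130918248-130919393, had 30.3 and 28.8 CPM in aRG and 2.02 and 1.96 in N (-3.89 ± 0.25, adjusted p = 1.5e-07), and held most of that gene's counts in aRG. All 6 regions with the largest falls were in the aRG and bRG peak lists, and none was in that of N. Their choice by a large fall in N favours this, so it is no separate evidence.

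The largest rises also lay away from gene starts. A CLSTN2 region, chr3:138109592-138110721, 77705 bp from the start, had 0.392 and 0.420 CPM in aRG, 13.2 and 7.98 in bIP, and 17.0 and 13.0 in N. It rose by 4.69 ± 0.39 in bIP and 5.20 ± 0.39 in N (adjusted p = 6.4e-06 and 4.1e-07), so it was already open in bIP. A CDH13 region, chr16:68296121-68297272, had 0.353 and 0.336 CPM in aRG, 1.24 and 0.729 in bIP, and 11 and 12.8 in N (5.10 ± 0.38, adjusted p = 3.8e-07), and opened mostly between bIP and N (3.59 ± 0.33, adjusted p = 2.1e-05). A CDH5 region, chr16:51476042-51477070, had 0.313 and 0.630 CPM in aRG, 4.87 and 2.07 in bIP, and 14.7 and 17.6 in N (5.10 ± 0.49, adjusted p = 2.2e-06). A CDH20 region, chr18:55431854-55432781, 122898 bp away, had 0.783 and 0.966 CPM in aRG, 8.72 and 4.68 in bIP, and 19.6 and 23.0 in N (4.60 ± 0.36, adjusted p = 5.7e-07).

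CDH22 held both of the other large rises. The first, chr20:45841062-45842070, had 0.353 and 0.462 CPM in aRG, 5.81 and 1.77 in bIP, and 11.7 and 7.42 in N (4.55 ± 0.56, adjusted p = 1.5e-05). The other, chr20:45881674-45882564, had 0.235 and 0.672 CPM in aRG, 6.87 and 2.11 in bIP, and 9.94 and 8.99 in N (4.39 ± 0.58, adjusted p = 2.4e-05), with 3.79 to 5.29 when either aRG library was left out. In both, bIP library 1 was well above bIP library 2. All 6 regions with the largest rises were in the N peak list, and none was in that of aRG. The choice by a large rise in N favours this, so it is no separate evidence.

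Distance from the gene start divided the family. Distances are those of the deposited table and follow human coordinates: for genes with at least 3 regions, 1 start position per gene explained 430 of 430 distances in hg38 and 101 of 430 in panTro6. Of the 40 tested regions at most 1 kb from a start, 3 rose and 19 fell in N against aRG (7.5% and 47.5%), beside 16.6% and 39.5% of all regions at that distance. From 10 to 50 kb, 77 of 151 rose and 31 fell (51.0% and 20.5%), beside 39.7% and 30.9% of all. From 1 to 10 kb, 29 of 73 rose and 19 fell (39.7% and 26%), beside 36.4% and 30.7% of all. Beyond 50 kb, 65 of 141 rose and 34 fell (46.1% and 24.1%), beside 43.6% and 30.3% of all. The median log2 fold change was -0.35 within 1 kb and 1.16 from 10 to 50 kb, beside -0.23 and 0.31 over all regions, so the direction by distance was that of the whole table. In gene sums of regions within 1 kb, 5 of 38 genes rose and 16 fell, 55.3% beside 53.0% of all (24.7% higher and 28.3% lower). Of the genes whose full sums rose in N, CDH20 and CLSTN2 fell when only regions within 1 kb were summed (-1.47 ± 0.15 and -0.36 ± 0.13, adjusted p = 3.7e-05 and 0.044). CDH18 (-0.063), CLSTN1 (-0.12) and CDHR1 (-0.13) did not pass there. Other calls that ended within 1 kb were CDH15 (0.32) and PCDH20 (-0.30) in N against aRG. In bIP against aRG they were CDH4 (-0.065), CDH7 (0.445) and PCDH7 (-0.14). In N against bIP they were CDH6 (0.13), CDH18 (0.23), CELSR2 (-0.055), CELSR3 (-0.69) and DCHS2 (-0.55). Further calls whose sign turned within 1 kb are listed at the end. The CDH18 rise was 0.94 within 50 kb (adjusted p = 0.015) in place of 2.41, and the bIP call of CLSTN2 ended there (0.40, adjusted p = 0.099).

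**Figure D5:**
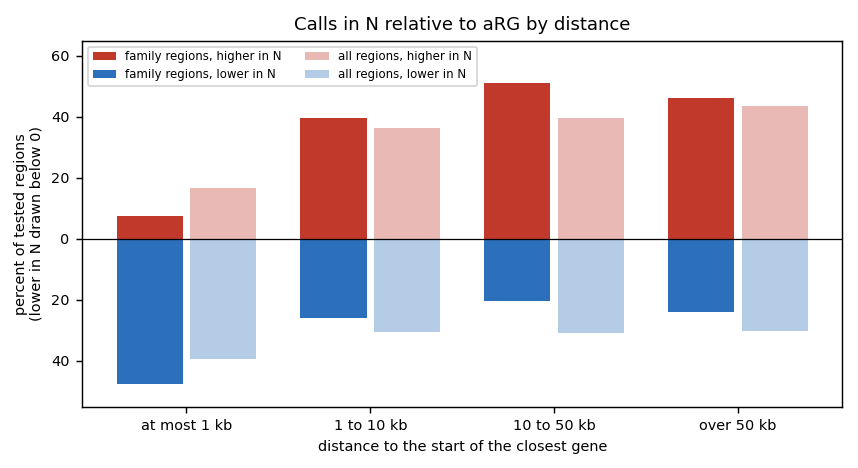
Percent of tested regions that were higher or lower in N against aRG, by distance to the closest gene's start, for cadherin-superfamily regions and for all regions. Within 1 kb 47.5% of the family's regions are lower and 7.5% higher; from 10 to 50 kb 51.0% are higher and 20.5% lower.

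The regions shared further features that the choice by name did not use. Their median width was 845 bp, beside 858 bp over the table. They lay a median of 28.1 kb from the gene start, beside 20.3 kb, with the farthest at 350.9 kb, and 42 of the 442 were within 1 kb of 39 of the 47 genes. A gorilla counterpart was listed for 99.1% of them and for 94.6% of all regions. In the authors' peak lists, 68 of 442 (15.4%, beside 17.7% of all regions) were peaks in all 4 populations, 49 (11.1%, beside 11.3%) in N alone, and 36 (8.1%, beside 6.1%) in bIP and N. In no list were 177 (40.0%, beside 35.6%).

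Partner genes were read from regions near them in the same way, from lists of the known machinery. Over all gene sums 32.8% rose and 28.0% fell in N against aRG, and these shares stand beside every list here. Whether a list departed from them was not tested. Of 10 catenins, which link cadherin tails to actin, 5 rose and 3 fell in N against aRG. CTNNA1 (alpha-E-catenin) had 3.44 and 3.09 CPM in aRG and 9.97 and 12.1 in N (1.76 ± 0.20, adjusted p = 0.00011), and CTNNB1 (beta-catenin) rose by 0.67 ± 0.11 (adjusted p = 0.00095). CTNND1 (p120-catenin, which holds cadherins at the membrane) had 96.3 and 88.5 CPM in aRG and 52.3 and 57.3 in N and fell by 0.75 (SE 0.12). Of 11 planar polarity and Fat partners, 2 rose and 4 fell. The polarity genes PRICKLE1 and PRICKLE2 rose by 0.52 ± 0.10 and 0.85 ± 0.14 (adjusted p = 0.0021 and 0.00098). FZD3 and FZD6 fell, both by 0.45. The Celsr partners VANGL1, with 63.8 and 68.9 CPM in aRG and 19.9 and 19.1 in N, and VANGL2, with 156 and 147 in aRG and 66.3 and 58.1 in N, fell by 1.76 and 1.29 (SE 0.13 and 0.11, adjusted p = 1.3e-05 and 2.2e-05).

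Of 11 junction partners and cadherin-processing genes, 2 rose and 4 fell. Again 32.8% of all gene sums rose and 28.0% fell, which also stands beside the lists that follow. PTPRM, a receptor phosphatase that binds cadherins, had 82.9 and 84.8 CPM in aRG and 27.7 and 28.5 in N and fell by 1.58 (SE 0.12, adjusted p = 1.6e-05). AFDN (afadin, which links nectins to actin) rose by 0.89. Of 7 actin regulators that bind protocadherin tails, 2 rose (CYFIP2 by 0.47, ABI1 by 0.43) and 1 fell (ABI2, -0.55). Of 5 measured repressors of cadherin genes, ZEB1 rose from 1.57 and 1.73 CPM in aRG to 4.93 and 7.92 in N (1.96 ± 0.28, adjusted p = 0.00034), and TWIST1 (-1.35 ± 0.17) and SNAI2 (-1.12 ± 0.15) fell.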

How the data were processed

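The authors' table gives a raw read count of each region in each of 8 libraries, beside the closest gene and how far away it lies, as its header names them. Tools and builds named in the submitters' processing notes were bcl2fastq 2.20.0, MACS2, panTro6 and hg38. The sources used here give neither aligner nor counting tool. Of the authors' consensus peak lists, 1 per population, only the intervals were used and not the score, the fold enrichment (a ratio) or the -log10 p-value that the authors deposited for each peak. Of 218080 regions, 6725 without a chimpanzee identifier (total count 0) and 7 repeats were removed. Of the 442 member regions, 405 passed filterByExpr and were tested.

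All regions (198227 tested) and, separately, count sums over all regions of each closest gene (40618 tested) were fitted with edgeR 4.0.16 in R 4.3.3 (quasi-likelihood, robust, TMM), with all 8 libraries in 1 fit and population as the only term. Adjusted p-values are Benjamini-Hochberg over the whole table. SE is the log2 fold change divided by the square root of F. The biological coefficient of variation was 0.216 for regions and 0.144 for gene sums. TMM differed between these fits, so region and gene log2 values are not on exactly the same scale: the single CDH3 region gave -2.29 in N against aRG as a region and -2.15 as a gene sum. The procedure was tested on simulated data. Members and lists were chosen with earlier results of these data known.

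Genes were named by rule: CDH2, up to 8 rises and 8 falls of N against aRG, up to 5 each way of the other comparisons, and all Fat, Dachsous, Celsr and calsyntenin genes. Regions were named as the 6 largest rises and falls with a mean of at least 2 CPM, at most 2 per gene, and the CDH2 start. Other named genes and regions were chosen after their values were seen.

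Same-numbered libraries deviated together from their group means: the correlation was 0.313 for aRG and bRG, 0.122 for aRG and bIP, 0.116 for aRG and N, 0.28 for bRG and bIP, 0.2 for bRG and N, and 0.237 for bIP and N. The numbers were therefore read as pairs, though no label says what they share, and library 1 was the deeper in each population. The main fit left these pairs out. With the replicate block, member gene sums gained calls and lost none. Besides those given above, CDH19, CDH20, CDHR3, CELSR3, FAT4 and PCDH9 passed in bIP against aRG (adjusted p = 0.036, 0.034, 0.031, 0.027, 0.043 and 0.043). CDH1, CDH16, CDH19, CDH4, PCDH20 and PCDH9 were gained in N against bIP. Alternatives were 2 other scalings, no filter, DESeq2 1.42.0, the replicate block, the libraries of a pair alone, each library left out, and sums over regions within 50 kb or 1 kb. A library left alone in its population is then assumed to vary like the others. Values of 1 gene of the partner lists are not reported here.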

Additional observations from a re-analysis of the deposited data

How the results depend on the processing

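Of 80 named calls (67 gene sums and 13 regions), 43 kept their direction and call under all alternatives run on them, the 13 regions among them, and 37 lost the call under at least 1. The distance limits apply to gene sums only, and 17 of the 67 had no value within 1 kb. With the replicate block all 80 calls held, and the count of member genes for bIP against aRG was 26 in place of 17. Total counts of genes moved by over 1.5 times in 3 comparisons. For bIP against aRG, 10 genes passed over regions within 1 kb. For bIP against bRG, 19 genes passed, 9 within 1 kb, and 11 to 20 with 1 library left out. For N against bIP, 21 genes passed, 13 when only the libraries of that pair were fitted, and 11 to 21 with 1 library left out; DESeq2 split these as 8 higher and 14 lower, in place of 11 and 10. The split within 1 kb turned from 17 higher and 12 lower to 5 and 16 for N against aRG, from 16 and 11 to 7 and 14 for N against bRG, and from 11 and 10 to 3 and 11 for N against bIP. Over all gene sums within 1 kb, 24.7% were higher and 28.3% lower for N against aRG, and 24.8% and 27.0% for N against bRG. For N against bIP these shares were 10.7% and 16.8%. With the replicate block 31 genes passed for N against aRG and 31 for N against bRG, in place of 29 and 27. The shares over all gene sums in those block fits are not given here. The scaling by library totals moved the median over all regions in N against aRG from 0.13 to 0.26. The other scaling, by size factors (RLE), moved it to 0.03. For bIP against aRG this median was 0.05 in the main fit, 0.22 by library totals and 0.04 by size factors.

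The only reversals came from the distance limits. Within 1 kb, N against aRG gave -0.063 for CDH18, -1.47 for CDH20, -0.13 for CDHR1, -0.12 for CLSTN1 and -0.36 for CLSTN2. In bIP against aRG it gave -0.065 for CDH4, -0.056 for CDHR1 and -0.068 for CLSTN2. In N against bIP it gave -0.41 for CDH10, -0.95 for CDH20, -0.10 for CLSTN1 and -0.21 for PCDH15. Within 50 kb, CDH20 gave -0.50 in N against aRG and -0.27 in N against bIP. These sums hold fewer regions. Depth limits the regions and genes under about 1 CPM, such as FAT3.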
